A study of Mus musculus with 4 samples.

Results

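Integrins are the paired transmembrane receptors through which fibroblasts hold on to the extracellular matrix, and their transcripts were read on 4 Affymetrix MOE430A arrays of mouse embryonic fibroblasts, cells cultured from mouse embryos. The genes are Itgb1, Itgb5, Itgb3, Itgav, Itga5, Itga3, Itga6, Itga7 and Itga9, and every probe set that the platform annotation ties to exactly 1 of these 9 symbols was taken. This gave 25 of the 22626 probe sets that are not controls. The 2 mTert samples had received the retroviral vector pBabePuro carrying mTert, which encodes the catalytic part of mouse telomerase. The 2 control samples had received the same vector without an insert, so every array comes from infected cells. The samples are titled mTert 1, mTert 2, control 1 and control 2. The labels state neither what the numbers mark nor how many cultures were used, so p-values reflect the spread among these 4 samples alone, part of which may be technical.

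Each integrin is a dimer of 1 alpha and 1 beta subunit. The alpha subunit largely sets which matrix protein is bound, while the beta subunit's tail recruits talin and kindlin, which join the receptor to actin and switch it on. In fibroblasts the best known dimers are the fibronectin receptor of Itga5 with Itgb1, the vitronectin receptors of Itgav with Itgb3 or Itgb5, and the laminin receptors of Itga3, Itga6 or Itga7 with Itgb1.

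The sequences just upstream of 3 of the genes are printed because these genes were detected on every array and their listed start is also the outermost start of the gene. Each is the stretch of 250 bases before the start in the RefSeq promoter table (build GRCm38.p6), 5′ to 3′ on the strand of the gene. Capitals mark the GC box, GGGCGG or its reverse complement CCGCCC. The windows are chr8:128685404-128685653 on the + strand for Itgb1, chr16:33829415-33829664 on the + strand for Itgb5 and chr15:103366792-103367041 on the - strand for Itga5.
Itgb1: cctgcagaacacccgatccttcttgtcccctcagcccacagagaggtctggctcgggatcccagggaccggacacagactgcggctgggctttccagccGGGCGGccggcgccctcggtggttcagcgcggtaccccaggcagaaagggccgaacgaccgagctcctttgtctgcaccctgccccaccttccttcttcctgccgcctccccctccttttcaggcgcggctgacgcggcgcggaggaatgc
Itgb5: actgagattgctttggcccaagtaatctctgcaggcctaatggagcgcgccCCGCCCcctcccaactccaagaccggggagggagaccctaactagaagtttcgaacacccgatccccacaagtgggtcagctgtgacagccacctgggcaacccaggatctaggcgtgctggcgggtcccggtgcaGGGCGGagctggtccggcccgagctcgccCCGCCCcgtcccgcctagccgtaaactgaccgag
Itga5: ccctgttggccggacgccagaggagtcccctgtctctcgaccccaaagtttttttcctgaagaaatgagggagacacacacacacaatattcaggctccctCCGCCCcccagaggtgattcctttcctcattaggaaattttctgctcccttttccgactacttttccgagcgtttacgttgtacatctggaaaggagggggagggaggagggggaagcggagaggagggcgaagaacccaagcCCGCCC

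The Itgb1 window holds 1 GC box, the Itgb5 window 3 and the Itga5 window 2. Their GC content is 68.0%, 65.2% and 55.6% in that order of genes, beside a median of 52.4% over the 32851 windows of the table. They hold 21, 18 and 11 CpG dinucleotides in the same order, against a median of 6. A GC box on either strand occurs in 32.7% of all windows. None of the 3 windows holds the letters TATAAA (12.4% of all windows), CCAAT (33.8%), the AP-1 site TGACTCA (4.46%) or a CArG box (1.47%), each searched on both strands. These are matches of letters and were not set against the array signals. Of the 9 genes, 6 matched the table by symbol, and Itga6, Itga7 and Itgb3 have no entry in it.

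The arrays were similar in depth of detection, with 11681 to 12298 probe sets called present, or 51.6% to 54.4%. The recorded amount of labelled cRNA was 15 µg for 3 arrays and 5 µg for control 1, and each array went through its own wash module. Tert, which checks the labels, was called present on both mTert arrays, with signals of 845 on mTert 2 and 1164.5 on mTert 1, and absent on both control arrays, with 84.7 on control 2 and 128 on control 1. Signals are in arbitrary units after scaling, and they show no order of transcript levels between probe sets or genes, since probes bind with different strength. Of 11 fibroblast marker genes read by the arrays, all 11 were present on all 4 arrays, with a summed signal of 88899 and 89036 on mTert 2 and mTert 1, and of 93186 and 94326 on control 2 and control 1. Single fibroblast markers differed: 3 were higher and 4 lower on both arrays numbered 2, beside 20.3% and 19.4% of all tested probe sets. On both mTert arrays 2 were lower and 0 higher than on both controls, beside 12.1% and 13.4%. Of the endothelial markers 7 of 9 were absent on every array, Pecam1 and Cdh5 among them. The same held for 7 of 9 epithelial markers, with Epcam and Krt8, and for 7 of 10 skeletal muscle markers, with Myod1 and Myog. It also held for 3 of 5 neural crest and glial markers. Other members of these lists were detected. Tek was present on all 4 arrays, Kdr on mTert 1 and control 1, Krt14 on mTert 1 and control 2, and Cdh1 on control 2. Des was present on mTert 1 and both controls, Acta1 on control 1 and Tnnt3 on mTert 2. Erbb3 was present on both arrays numbered 2 and S100b on both numbered 1. Smooth muscle markers summed to 14965 on mTert 2 and 14291 on control 2, against 18592 on mTert 1 and 18855 on control 1. Of the 7, 5 were lower on both arrays numbered 2, beside 19.4% of all tested probe sets. Among those 5, Myh11 and Lmod1 were absent on every array, so their order is not a measured difference.

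Transcripts of 6 of the 9 integrin genes were detected on all 4 arrays: Itgb1, Itgb5, Itgav, Itga5, Itga3 and Itga6. Together they have 20 probe sets, of which 15 were present on all 4 arrays and 5 on none. All 4 probe sets of Itgb5, all 3 of Itgav, and both of Itga5 and of Itga6 were present throughout, as were 3 of 6 for Itgb1 and 1 of 3 for Itga3. The probe sets of Itgb1 therefore disagreed in their calls: 1426919_at, 1426920_x_at and 1438119_at had signals between 1.60 and 34.9 and were absent everywhere. The absent Itga3 probe sets, 1421997_s_at and 1460305_at, read between 17.4 and 72.0.

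Itgb3, the beta subunit of the platelet fibrinogen receptor, and Itga7, the laminin receptor subunit of muscle, have 1 probe set each and were absent on every array. Itgb3 read between 19.4 and 26.5. Itga7 read 293 on both mTert arrays, 257 on control 2 and 301 on control 1, with detection p-values between 0.0676 and 0.0952, so it was not told from background. Itga9, a receptor for tenascin and VCAM, was absent on 2 of its 3 probe sets. The remaining one, 1460285_at, was present on control 2 alone, with 148 on mTert 2, 145 on mTert 1, 251 on control 2 and 143 on control 1. Control 1 was thus absent, as were both mTert arrays, so the order of these signals is not a measured difference. The probe set was not tested.

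**Figure D1:**
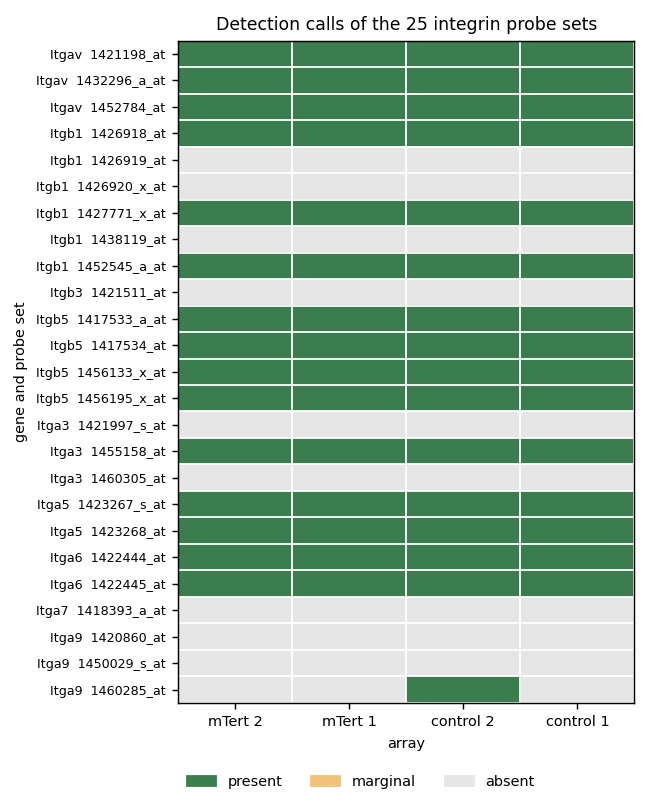
Detection calls of the 25 integrin probe sets (rows) on the 4 arrays (columns), green for present and grey for absent. The 15 probe sets of 6 genes are green on every array, Itgb3 and Itga7 are grey on every array, and Itga9 is green on control 2 alone.

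The first comparison asked whether fibroblasts with the telomerase transgene differed from those with the empty vector in these receptors. It was fitted with limma on all 12396 probe sets present on at least 2 of the 4 arrays, which include 15 integrin probe sets, and p-values were adjusted over all of them at a threshold of 0.05. None of the 15 integrin probe sets passed, against a background of 0.0% (0 of 12396), and every adjusted p of the 15 was 1.00. At an unadjusted limma p under 0.05 there were 0 of 15, against 2.11% of all probe sets (261). The mTert minus control differences of the integrin probe sets ran from -0.37 to 0.24 on the log2 scale, with a median of 0.04 beside 0.0058 over all tested probe sets. The mean was higher in mTert for 11 and lower for 4, a count in which several probe sets read the same gene. With 1 probe set per gene, the one with the highest mean signal, 4 of 6 genes were higher and 2 lower, with a median of 0.04. For 9 of the 15 probe sets the 95% interval of the difference lay within a 1.5-fold change either way, and for the others it reached further.

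The beta subunits carry the signalling tails. Itgb1, the partner of many alpha subunits, read 2913 on mTert 2, 3205 on mTert 1, 2758 on control 2 and 2964 on control 1 with 1426918_at, a difference of 0.10 (SE 0.10, 95% interval -0.15 to 0.34). With 1452545_a_at it read 4324 on mTert 2, 4888 on mTert 1, 4613 on control 2 and 4847 on control 1, a difference of -0.04 (SE 0.09, interval -0.27 to 0.19). In both the groups overlapped and the intervals ended short of a 1.5-fold change. The third Itgb1 probe set, 1427771_x_at, whose type can also bind other transcripts, averaged 267 ± 6.38 in mTert and 265 ± 41.8 in control (SD, n = 2 each). Its difference of 0.02 (SE 0.19) turned sign under quantile normalization, to -0.0096.

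Itgb5 pairs with Itgav. Its probe set 1417533_a_at read 3283 on mTert 2, 3619.8 on mTert 1, 3290.0 on control 2 and 3393 on control 1, a difference of 0.05 (SE 0.09). The widest spread was that of 1417534_at, with 1256 on mTert 2, 1840.5 on mTert 1, 1387 on control 2 and 1358 on control 1. There mTert 1 alone stood apart, while mTert 2 lay below both controls. The other Itgb5 probe sets, 1456133_x_at and 1456195_x_at, are of the type that can also bind other transcripts. They read lowest on control 2 (2469.95 and 1270.5). All 4 Itgb5 probe sets had a higher mean in mTert, by 0.03 to 0.15, and in all 4 the groups overlapped.

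Itgav, the alpha subunit that Itgb3 and Itgb5 share and that also activates latent TGF-beta, was read by 3 probe sets that did not move alike. With 1452784_at it read 3616 on mTert 2, 3439.8 on mTert 1, 3397 on control 2 and 3817 on control 1, so both mTert arrays lay between the controls. With 1421198_at it read 349 on mTert 2, 404 on mTert 1, 277 on control 2 and 494 on control 1, again with mTert between the controls. The remaining one, 1432296_a_at, read 136 on mTert 2, 151 on mTert 1, 178 on control 2 and 192 on control 1, so that both mTert arrays lay below both controls. Its means were 143 ± 10.2 in mTert and 185 ± 10.1 in control (SD, n = 2 each), a difference of -0.37 (SE 0.20, 95% interval -0.86 to 0.12, limma adjusted p = 1.00). Between arrays of the same number the difference was -0.38 for number 2 and -0.35 for number 1.

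Among the alpha subunits that pair with Itgb1, Itga5 binds fibronectin. Its probe set 1423267_s_at read 809.8 on mTert 2, 766 on mTert 1, 735 on control 2 and 604 on control 1, and the groups did not overlap. Its means were 788 ± 30.7 in mTert and 669 ± 92.7 in control (SD, n = 2 each), a difference of 0.24 (SE 0.15, 95% interval -0.12 to 0.61, limma adjusted p = 1.00), which ran from 0.10 to 0.38 with 1 array left out. The other Itga5 probe set, 1423268_at, read 445 on mTert 2, 409.9 on mTert 1, 401 on control 2 and 490.1 on control 1, so it lay on the opposite side of 0, at -0.05 (SE 0.17). Itga3, a laminin receptor subunit, read 304 on mTert 2, 358 on mTert 1, 306 on control 2 and 303 on control 1 with 1455158_at, a difference of 0.11 (SE 0.17). Itga6, the laminin receptor subunit that also pairs with Itgb4 in epithelia, averaged 218 ± 105 in mTert and 183 ± 73.9 in control with 1422444_at (SD, n = 2 each). Its interval was the widest of the 15, from -0.80 to 1.26, and in each group array 2 lay well above array 1.

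The groups thus did not overlap for 2 of the 15 integrin probe sets (13.3%), 1 higher and 1 lower in mTert. Over all tested probe sets this share was 25.5%, with 13.4% higher and 12.1% lower, so the integrin share was not above the background. Only 4 of the 15 lay on the same side in both pairs of equally numbered arrays. With any 1 array left out limma still called 0 of the 15. The sign of the difference turned in at least 1 of these 4 fits for 12 of the 15.

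**Figure D2:**
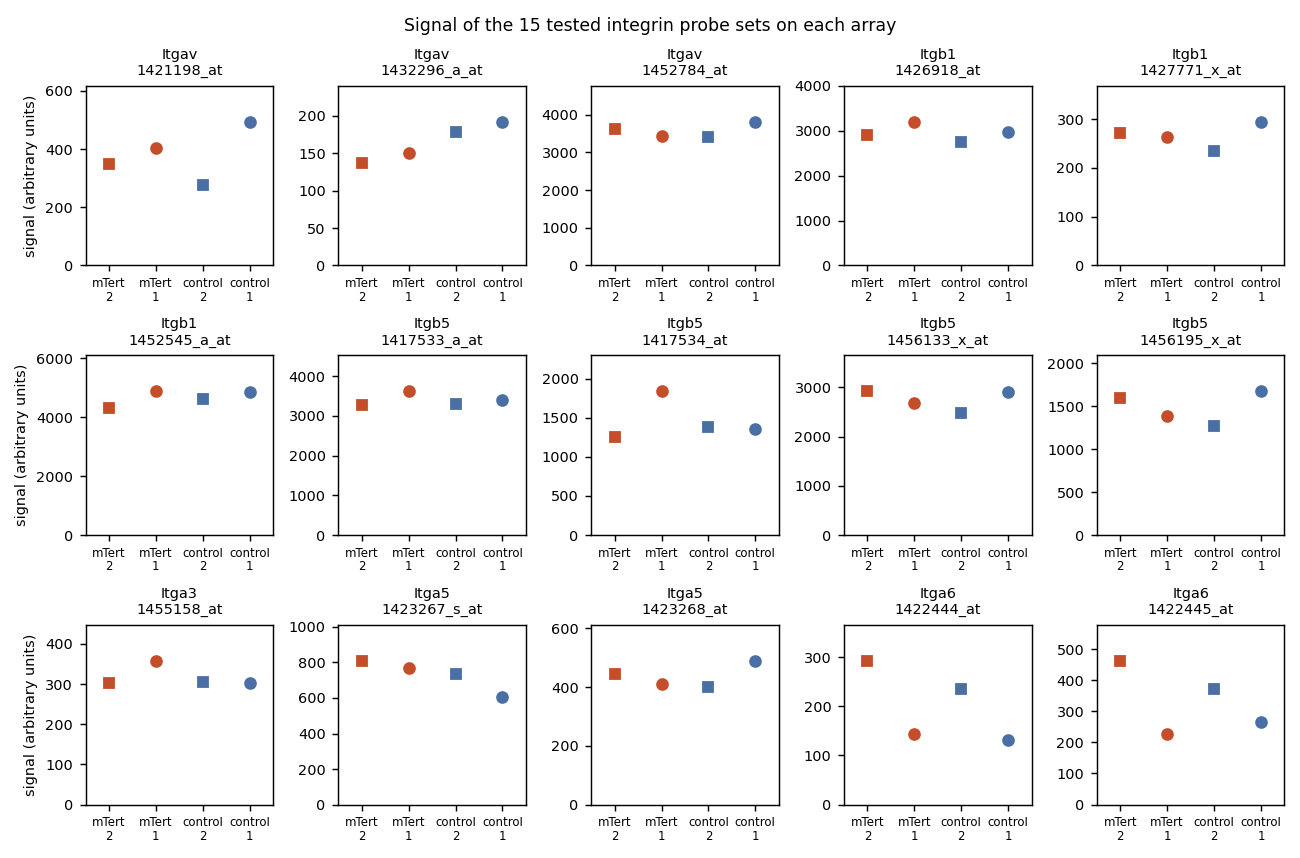
Signal (arbitrary units, linear axis from 0) of the 15 integrin probe sets present on all arrays, 1 panel each, on mTert 2, mTert 1, control 2 and control 1, with squares for arrays numbered 2 and circles for arrays numbered 1, orange for mTert and blue for control. In most panels the colours overlap, and in both Itga6 panels the squares lie above the circles.

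The second comparison set the arrays numbered 2 (mTert 2 and control 2) against those numbered 1 (mTert 1 and control 1) with the treatment balanced on both sides. It used the same limma fit with the number as the factor, and it called 192 of 12396 probe sets (1.55%), 131 higher and 61 lower on arrays numbered 2. No integrin probe set was among them, 0 of 15. At an unadjusted limma p under 0.05 there were 3 of 15 (20.0%), both Itga6 probe sets and Itgav 1421198_at, against 10.5% of all probe sets. The signals did not overlap for 6 of 15 (40.0%), 2 higher and 4 lower on arrays numbered 2, while the share over all tested probe sets was 39.8%, with 20.3% higher and 19.4% lower. The median difference, number 2 minus number 1, was -0.10 on the log2 scale over the integrin probe sets and 0.00074 over all tested ones. The mean was lower on arrays numbered 2 for 12 of 15, a count in which several probe sets read the same gene. With 1 probe set per gene, the one with the highest mean signal, 4 of 6 genes were lower and 2 higher, with a median of -0.07. Only 8 of the 15 lay on the same side in mTert and in control.

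Itga6 was the member with the largest difference, on both of its probe sets. With 1422444_at it read 292 on mTert 2 and 235 on control 2, against 144 on mTert 1 and 130.5 on control 1. The means were 264 ± 40.6 on arrays numbered 2 and 137 ± 9.68 on arrays numbered 1 (SD, n = 2 each). The difference was 0.93 (SE 0.20, 95% interval 0.47 to 1.40), or 1.91-fold, with a limma adjusted p of 0.0751. With 1422445_at it read 463 on mTert 2 and 373 on control 2, against 226 on mTert 1 and 266 on control 1. The means were 418 ± 63.9 on arrays numbered 2 and 246 ± 28.4 on arrays numbered 1 (SD, n = 2 each), a difference of 0.76 (SE 0.18, interval 0.35 to 1.17), or 1.69-fold, with a limma adjusted p of 0.101. Array 2 lay above array 1 in mTert (2.03-fold and 2.05-fold) and in control (1.80-fold and 1.40-fold), but neither probe set passed the test.

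The call for Itga6 moved with the fit. With the group (mTert or control) as a further term, limma's adjusted p for 1422444_at was 0.0359, which passed. Over all alternatives it ran from 0.0359 to 0.362, and for 1422445_at from 0.0601 to 0.441. Without control 1, the array with 5 µg of cRNA, the differences were 0.86 and 0.88.

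Macrophage markers moved with the same arrays. All 11 marker genes of macrophages read by the arrays had higher signals on both arrays numbered 2. Only 5 of them were present on every array: Cd68, Adgre1, Csf1r, Lyz2 and Ptprc. For these 5 the order is measured, beside 20.3% of all tested probe sets. Cd14, Fcer1g, Tyrobp and Cd53 were absent on both arrays numbered 1 and passed the filter on calls through the arrays numbered 2 alone. Itgam and Itgb2 were not tested, so the order of their signals is not a measured difference. The summed signal of all 11, absent signals included, was 11740 on mTert 2 and 11159 on control 2, against 3107.3 on mTert 1 and 2837.4 on control 1. Of the 11, 9 were present on mTert 2 and 10 on control 2, and 5 each on mTert 1 and control 1. The list includes 2 further integrin subunits of white blood cells. Itgam read 119.9 on mTert 2 and 117 on control 2, against 16.2 on mTert 1 and 9.10 on control 1, and was marginal on mTert 2 and absent elsewhere. Itgb2 read 304 on mTert 2 and 286 on control 2, against 143 on mTert 1 and 113 on control 1. It was present on control 2 alone, marginal on mTert 2 and absent on both arrays numbered 1. The part of the macrophage genes in the Itga6 difference was not tested, and in such bulk RNA fewer cells of a type and less RNA per cell cannot be told apart.

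**Figure D3:**
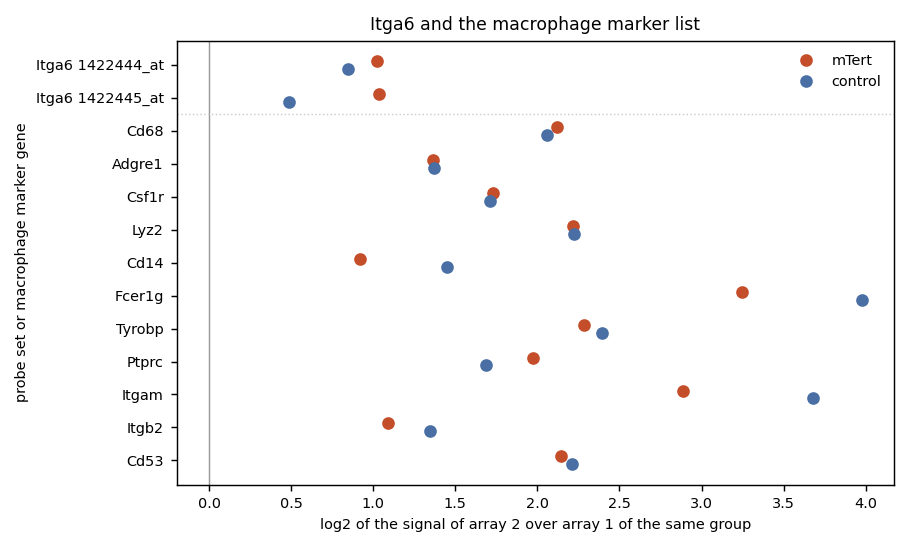
Log2 of the signal of array 2 over array 1 of the same group, for both Itga6 probe sets and the 11 macrophage marker genes (orange mTert, blue control). All points lie above 0, with Itga6 between 0.48 and 1.03. Of the markers, 5 were present on the arrays numbered 1, and the places of the others are not measured sizes.

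The remaining members were lower or little different on arrays numbered 2. Itgav 1421198_at read 349 on mTert 2 and 277 on control 2, against 404 on mTert 1 and 494 on control 1, a difference of -0.52 (SE 0.18, limma adjusted p = 0.304). Array 2 minus array 1 was -0.84 within control and -0.21 within mTert. Without control 1, the array with 5 µg of cRNA, the difference was -0.38. The other Itgav probe sets stood at -0.13 (SE 0.23) and -0.05 (SE 0.09), and in both the signals overlapped. The other probe sets without overlap were 1452545_a_at and 1426918_at of Itgb1, both at -0.12, and 1417533_a_at of Itgb5, at -0.09. All 3 Itgb1 and all 4 Itgb5 probe sets had a lower mean on arrays numbered 2, by 0.05 to 0.26 on the log2 scale. The largest of these differences, that of Itgb5 1417534_at, had an SE of 0.15. Within the groups, 1426918_at, 1452545_a_at and 1417533_a_at were lower on array 2 in both. Itgb1 1427771_x_at and Itgb5 1456133_x_at and 1456195_x_at were higher on mTert 2 than on mTert 1, by 0.05, 0.12 and 0.20. Itgb5 1417534_at was higher on control 2 than on control 1, by 0.03. Itga3 stood at -0.11 (SE 0.16). Itga5 again differed between its probe sets, at 0.18 (SE 0.15, and from 0.0095 to 0.35 with 1 array left out) for 1423267_s_at and -0.09 (SE 0.15) for 1423268_at. For 10 of the 15 the 95% interval lay within a 1.5-fold change.

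**Figure D4:**
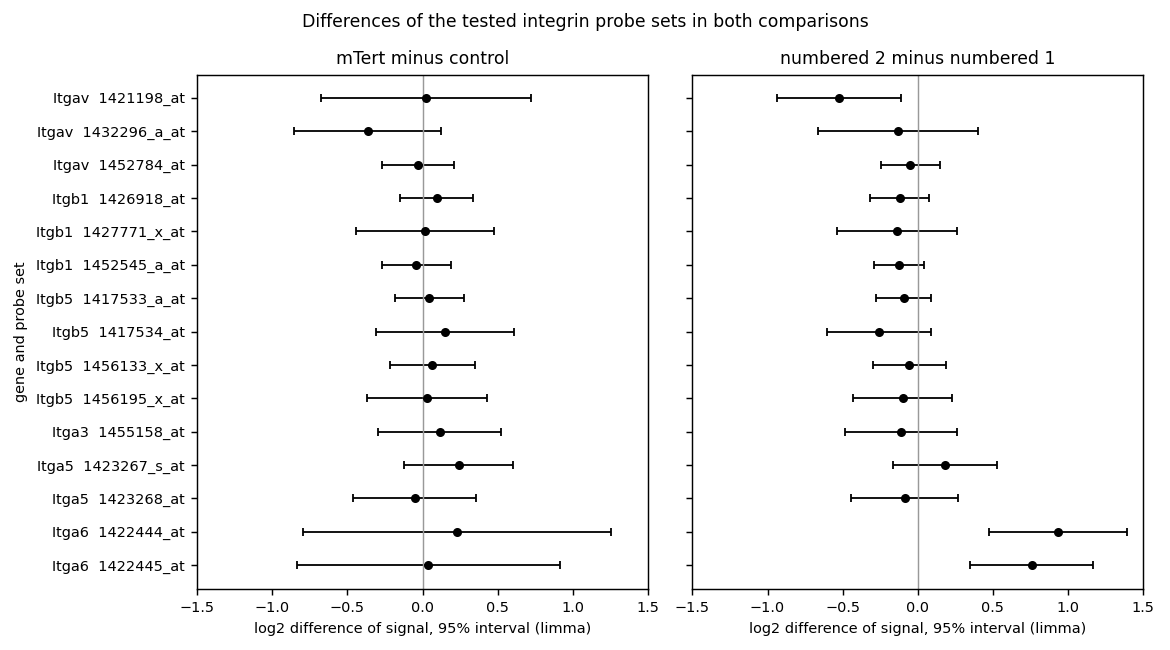
Log2 differences of the 15 tested integrin probe sets with 95% intervals from limma, mTert minus control (left) and arrays numbered 2 minus arrays numbered 1 (right). On the left every interval covers 0; on the right those of both Itga6 probe sets and of Itgav 1421198_at do not.

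Other integrin subunits were mostly undetected. Of 14 further genes read by 17 probe sets, 9 were present on no array, Itga2, Itga4 and Itgb4 among them, and 4 were tested. Itga8, a receptor for nephronectin and fibronectin, read 298 on mTert 2 and 306 on control 2, against 486 on mTert 1 and 727 on control 1, a difference of -0.98 (SE 0.20, limma adjusted p = 0.0647). Between mTert and control it stood at -0.31 (SE 0.43). The platelet subunit Itga2b, the beta-like protein Itgbl1 and Itgb2l stood between -0.11 and 0.21 for mTert minus control and between -0.17 and 0.39 for number 2 minus number 1, and none passed.

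The proteins around the receptors were described on 1 probe set per gene, the one with the highest mean signal. The shares given beside them are over every tested probe set, so the sets are not alike. Between mTert and control limma called 0 of 30 genes of the integrin tail and adhesion site, 0 of 18 membrane partners and 0 of 32 ligands, with medians of -0.03, 0.0018 and -0.01. With 1 array left out these medians ran from -0.12 to -0.02, from -0.10 to 0.03 and from -0.07 to 0.02. The groups did not overlap for 20.0%, 27.8% and 15.6% of them in that order, beside 25.5% of all probe sets. The smallest p belonged to Tns1, which links integrin tails to actin, at -0.31 (SE 0.11), to Cd9, a tetraspanin that binds integrins, at -0.24 (SE 0.10), and to Ccn1, a matricellular ligand of Itgav dimers, at -0.27 (SE 0.09), all with a limma adjusted p of 1.00. Next came Sharpin, Crkl and Rap1b between -0.21 and -0.12, Sdc4 and Cd82 at -0.19 and -0.16, Plaur at 0.20, Tgfbi at 0.20, Postn at -0.14 and Npnt at -0.34. Other probe sets lay on the opposite side for Rap1b, at 0.0037 (1435518_at) and 0.05 (1455349_at), and for Sdc4, at 0.08 (1417654_at).

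Between the numbers, 1 of 30 adhesion site genes was called higher, 1 of 18 membrane partners lower and 3 of 32 ligands lower, against 1.55% of all probe sets called. The adhesion site gene was Fermt3, the kindlin of blood cells, with 283 on mTert 2 and 204 on control 2, against 39.3 on mTert 1 and 43.9 on control 1, where it was absent. With the absent signals taken as they stand the ratio was 5.78-fold, which is not a measured size. Fermt3 passed the filter on calls through the arrays numbered 2 alone, so its call is a description and not a test. It moved with the macrophage markers above, whose part was not tested. The partner called lower was Thy1, which binds integrins in trans and is also in the fibroblast marker list, at -0.68 (SE 0.09, limma adjusted p = 0.0128).

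Of the ligands, Ccn2, a matricellular protein, read 3594 on mTert 2 and 3646 on control 2, against 5109.5 on mTert 1 and 5663 on control 1, a difference of -0.57 (SE 0.08, limma adjusted p = 0.0123). Thbs2, a thrombospondin, stood at -0.61 (SE 0.09, adjusted p = 0.0186 by limma). Tnc, the tenascin that Itga9 dimers bind, read 3443 on mTert 2 and 2325 on control 2, against 5433 on mTert 1 and 5434 on control 1, a difference of -0.94 (SE 0.16, limma adjusted p = 0.0267). With 1 array left out, Thy1 lost its call without control 2 (adjusted p = 0.0774 by limma). Ccn2 and Thbs2 lost theirs without control 2 and without mTert 2, with limma adjusted p up to 0.0900 and 0.120. Tnc stayed under the threshold in these 4 fits, up to 0.0346. With no filter on calls and with no variance trend, Thy1, Ccn2, Thbs2 and Tnc lost their calls, with limma adjusted p up to 0.132, 0.174, 0.197 and 0.197.

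Not called but next by p were Flna at -0.32, Src at -0.56 and Vcl at -0.20 at the adhesion site, Sdc2 at -0.48, Cav1 at -0.29 and Tspan4 at 0.40 in the membrane, and Col4a1 at -0.37 among ligands. Another Sdc2 probe set, 1417011_at, did pass at -0.66 (SE 0.11, limma adjusted p = 0.0225). The signals did not overlap for 15 of the 30 adhesion site genes (5 higher and 10 lower on arrays numbered 2), for 61.1% of the partners (3 higher, 8 lower) and for 71.9% of the ligands (11 higher, 12 lower), beside 39.8% of all probe sets. The list medians were -0.08, -0.04 and -0.03 in that order. The list shares rest on the probe set with the highest mean signal of each gene, while 39.8% is over every tested probe set.

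**Figure D5:**
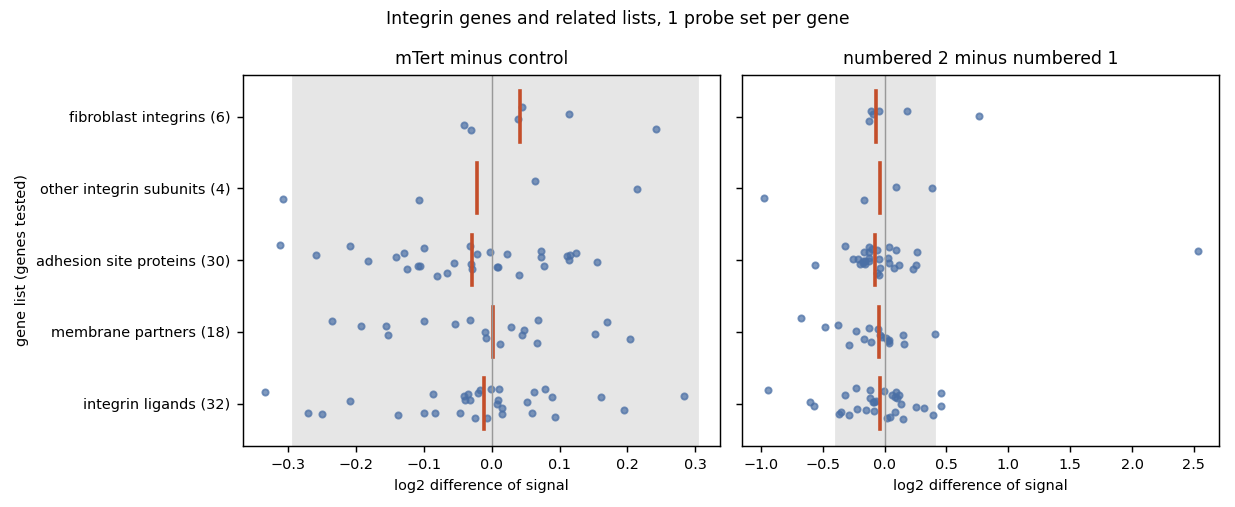
Log2 differences of integrin genes and related lists, 1 probe set per gene, for mTert minus control (left) and arrays numbered 2 minus arrays numbered 1 (right). Points are genes, orange bars list medians, and the grey band holds the middle of all tested probe sets, -0.29 to 0.30 on the left and -0.39 to 0.41 on the right (5th to 95th percentile). The point farthest right is Fermt3, drawn from signals that were absent on arrays numbered 1, so its place is not a measured size.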

How the data were processed

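RNA of 4 samples was hybridised to 1 array each, and their titles gave the groups. Each probe set has a linear intensity and a present, marginal or absent call as deposited by the authors, per the file headers. The deposited detection p-value stands beside each call. How probes were summarised is not stated in the labels or headers. The series table held the same intensities.

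Signals were scaled to a common mean over the probe sets that are not controls, with 2% trimmed at each end, and taken to log2. Probe sets present on at least 2 of 4 arrays were fitted with limma 3.58.1 in R 4.3.3 (lmFit, eBayes with an intensity trend) without a replicate block, with Benjamini-Hochberg adjustment over all 12396, and the step was tested on simulated data. The number of arrays limits the precision. An exact permutation test of 2 against 2 arrays cannot go below p = 0.333 (two-sided).

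Gene symbols were those of the platform annotation in GEO (1 symbol for 20380 probe sets, several for 691, and 1555 without an entry), and no member's probe set carried several. Promoter windows came from RefSeq. The members and lists were chosen with earlier results of these data known. From each related list the 4 genes with the smallest limma p in each comparison are named, besides single further probe sets of Sdc2, Rap1b and Sdc4, named after their values were seen. Alternatives were the scaling, an offset of 50, the filter on calls, the variance trend, the replicate term, the probe set per gene and leaving out each array.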

Additional observations from a re-analysis of the deposited data

How the results depend on the processing

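The calls of the integrin probe sets hardly moved with the processing. Between mTert and control limma called 0 of 15 under all alternatives run, including each array left out. Between arrays numbered 2 and numbered 1 it called 0 under all but one: with a replicate block in the form of the group as a term it called 1, Itga6 1422444_at. Over all probe sets the replicate block gave 18 calls between mTert and control, 3 higher and 15 lower, where the fit without it gave 0. The labels do not say that a number marks a shared culture or day. Over all tested probe sets the deviations of equally numbered arrays correlated at r = 0.373, a description over probe sets that share arrays. Between the numbers the 192 calls became 347 with the group as a term, 94 with no filter on calls, 119 with presence on all 4 arrays and 80 with no variance trend. They ran from 80 to 204 with 1 array left out. The variance and the number of probe sets tested change by construction in these fits.

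Among single probe sets, quantile normalization turned the mTert minus control difference of Itgb1 1427771_x_at to -0.0096. With 1 array left out the same difference ran from -0.40 to 0.44 for Itgav 1421198_at, -0.11 to 0.054 for Itgav 1452784_at, -0.14 to 0.18 for Itgb1 1427771_x_at, -0.13 to 0.048 for Itgb1 1452545_a_at, -0.025 to 0.12 for Itgb5 1417533_a_at, -0.13 to 0.42 for Itgb5 1417534_at, -0.050 to 0.18 for Itgb5 1456133_x_at and -0.17 to 0.23 for Itgb5 1456195_x_at. It ran from -0.0060 to 0.23 for Itga3 1455158_at, -0.20 to 0.092 for Itga5 1423268_at, -0.28 to 0.74 for Itga6 1422444_at and -0.48 to 0.56 for Itga6 1422445_at. For number 2 minus number 1 it ran from -0.32 to 0.063 for Itgav 1432296_a_at, -0.12 to 0.027 for Itgav 1452784_at, -0.18 to 0.066 for Itgb5 1456133_x_at, -0.26 to 0.067 for Itgb5 1456195_x_at, -0.23 to 0.0067 for Itga3 1455158_at and -0.21 to 0.043 for Itga5 1423268_at. Such fits also hold part of the other comparison, since they leave the arrays unbalanced. Of the list values, 9 medians moved by more than their spread and 4 counts by over 1.5 times outside the fits with 1 array left out, and 17 medians and 4 counts within them. Probe sets called absent give no more than a bound.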
